A study of Mus musculus with 2 samples.

Results

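Mir221 and Mir222 are neighbouring microRNA genes of the mouse X chromosome that form 1 cluster. They were taken as the genes that carry these names in GENCODE mouse release 21, which gave 2 of the 2202 microRNA genes counted. Small RNA of below 30 nt was sequenced from the gastrocnemius, the large calf muscle, of female B6CASTF1/J mice aged 2 months. Such mice are first-generation hybrids between the inbred strains C57BL/6J and CAST/EiJ. There is 1 group, with no treatment in the labels and no second condition, and it holds 2 libraries that the labels call biological replicates 1 and 2. The animal numbers in the labels differ while the donor code is the same, so differences between libraries are read as differences between samples, which may be technical.

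MicroRNAs are short RNAs cut from hairpin transcripts, and their seed, bases 2 to 8 from the 5′ end, sets which messenger RNAs they pair with. The products of Mir221 and Mir222 are known to repress Cdkn1b, which encodes the cell cycle inhibitor p27, and Kit, a receptor of growth signals. They are known to fall when myoblasts leave the cell cycle and fuse, to favour growth of vascular smooth muscle and to restrain the growth of endothelium, so muscle tissue holds several cell types in which they have been described.

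The mature sequences are shown because the shared seed is what joins these genes into 1 family. RefSeq on GRCm38.p6 listed both genes, with both arms for Mir221 and the 3′ arm for Mir222. The seed is in capitals, and all are written 5′ to 3′.
mmu-miR-221-3p: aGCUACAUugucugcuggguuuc
mmu-miR-222-3p: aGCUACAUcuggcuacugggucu
mmu-miR-1928: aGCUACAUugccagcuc
mmu-miR-221-5p: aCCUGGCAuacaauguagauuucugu

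The 3′ arms of Mir221 and Mir222 were alike in their first 8 bases, which hold the whole seed, and in 11 of 23 positions when set side by side without gaps. Beyond the common start, the longest run they shared at any place was CUGGGU. Their seed occurred in 3 of the 1679 mature microRNAs of the RefSeq table (0.179%). The other one was miR-1928, of 17 nt, which shares its first 10 bases with miR-221-3p and its first 8 with miR-222-3p. Its gene Mir1928, on chromosome 1, had 0 counts in both libraries, which allows up to 1.54 and 1.31 counts per 1000000 (CPM) at the floor of 3 counts. The 5′ arm of Mir221 has another seed. The deposited counts are per gene, so the arms cannot be told apart and each value below covers both.

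The hairpins are shown because reads are assigned to these stretches, with the 3′ mature arm in capitals.
Mir221: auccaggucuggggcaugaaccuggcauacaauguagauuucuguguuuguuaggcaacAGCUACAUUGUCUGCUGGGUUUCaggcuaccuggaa
Mir222: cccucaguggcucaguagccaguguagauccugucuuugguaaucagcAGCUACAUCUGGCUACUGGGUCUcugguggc

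Mir221 (ENSMUSG00000065422.1) lies on the minus strand at chrX:19146294-19146388 in mm10, and Mir222 (ENSMUSG00000065471.1) on the same strand at chrX:19146893-19146971. The hairpins are 95 and 79 nt long and 504 nt apart, so the cluster spans 678 nt and Mir222 comes first along transcription. No other annotated gene overlaps the cluster on either strand. The nearest annotated gene upstream on the same strand that is no microRNA gene is Gm14636, a noncoding transcript whose 3′ end lies 10009 nt from the cluster. The nearest other microRNA genes are Gm22464, 3438448 nt away on one side, and Gm24824, 1676765 nt away on the other. Gm22464 and Gm24824 each had 0 counts in both libraries.

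**Figure D1:**
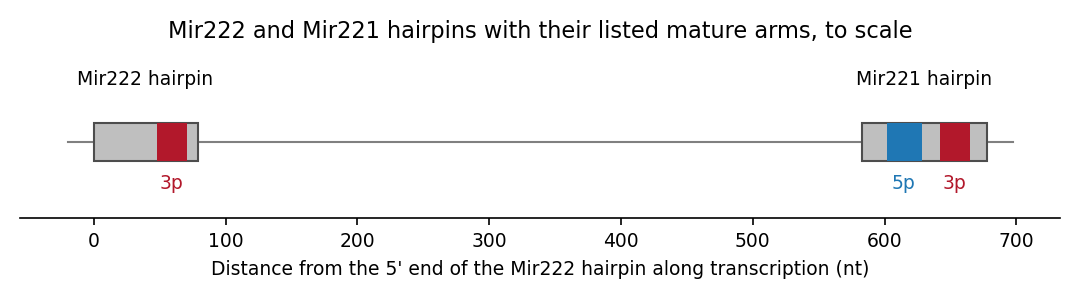
Map of the cluster, drawn to scale by distance in nt from the 5′ end of the Mir222 hairpin. Grey boxes are the hairpins of 79 and 95 nt, red boxes the 3′ mature arms and the blue box the 5′ arm of Mir221, and a gap of 504 nt separates the hairpins.

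The hairpins have little sequence in common with other microRNA genes. The longest stretch that Mir221 shared with any other counted microRNA gene, on either strand, was 13 nt, with Mir7672 and 1 other gene. For Mir222 it was 12 nt, with Mir7051 among 3 genes. Between Mir221 and Mir222 themselves it was 9 nt, the run CAGCUACAU, which contains the seed. The reads without a single place in the genome, 70.1% of all reads in replicate 1 and 72.3% in replicate 2, were counted in no gene, and whether any of them came from this cluster was not tested.

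Both genes were expressed, and Mir221 had several times as many counts as Mir222. In replicate 1 Mir221 had 1643 counts on its own strand, 842.5 CPM (95% exact Clopper-Pearson interval 802 to 884). In replicate 2 it had 1034 counts, 451 CPM (424 to 479.5). Its mean was 647 ± 277 CPM (SD, n = 2), and the higher value was that of replicate 1, with intervals that do not overlap.

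Mir222 had 236 counts in replicate 1, 121 CPM (106 to 137.5). It had 159 counts in replicate 2, 69.4 CPM (59.0 to 81.0). Its mean was 95.2 ± 36.5 CPM (SD, n = 2), and replicate 1 was again the higher library with no overlap of the intervals. Together the genes held 0.0964% of the microRNA counts of replicate 1 and 0.0521% of those of replicate 2. CPM are taken over the 1950204 and 2291821 own-strand microRNA gene counts of the libraries, where 1 count is worth 0.513 and 0.436 CPM. The intervals hold the counting error of reads alone. Several reads can be copies of 1 amplified molecule, so the intervals can be too narrow for molecules. In a whole muscle, fewer cells of a type and less RNA per cell cannot be told apart.

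Neither gene had a count on the opposite strand in either library. Counts without regard to strand were the same as those on the own strand, 1643 and 1034 for Mir221 and 236 and 159 for Mir222.

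Both genes were detected, that is, had at least 10 counts in each library, as had 278 of the 2202 genes. Mir221 ranked 71 by mean CPM among the 278, at position 61 in replicate 1 and 82 in replicate 2. Genes with near-identical copies lose reads in these counts, so ranks hold for placed reads only. Mir222 ranked 147, at positions 140 and 160, close to the median level of the detected genes, 123 CPM. On the X chromosome, 29 of 142 microRNA genes were detected, and Mir221 was the 7th and Mir222 the 15th of these in mean CPM. The neighbours of Mir221 in this order were Mir128-1 at 655 ± 229 CPM and Mir106b at 614 ± 43.6 CPM (SD, n = 2 each). Those of Mir222 were Mir431 at 95.5 ± 29.5 CPM and Mir3068 at 95.1 ± 14.2 CPM (SD, n = 2 each). Each of these 4 genes differed in mean from its member of the cluster by less than the SD of either, so these data do not set their order.

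The 3 detected genes most like each member were found by the distance in log2(CPM + 1) over the 2 libraries. For Mir221 they were Mir30b at a distance of 0.21, Mir451a, the red cell microRNA, at 0.40 and Mir541 at 0.50. Mir30b had 734 and 429 CPM in replicates 1 and 2, and Mir451a had 682.5 and 377 CPM. For Mir222 they were Mir3102 at 0.083, Mir431 at 0.12 and Mir467d at 0.14. Mir3102 had 116 and 72.4 CPM. With 2 libraries, likeness says only that level and direction are near each other.

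**Figure D2:**
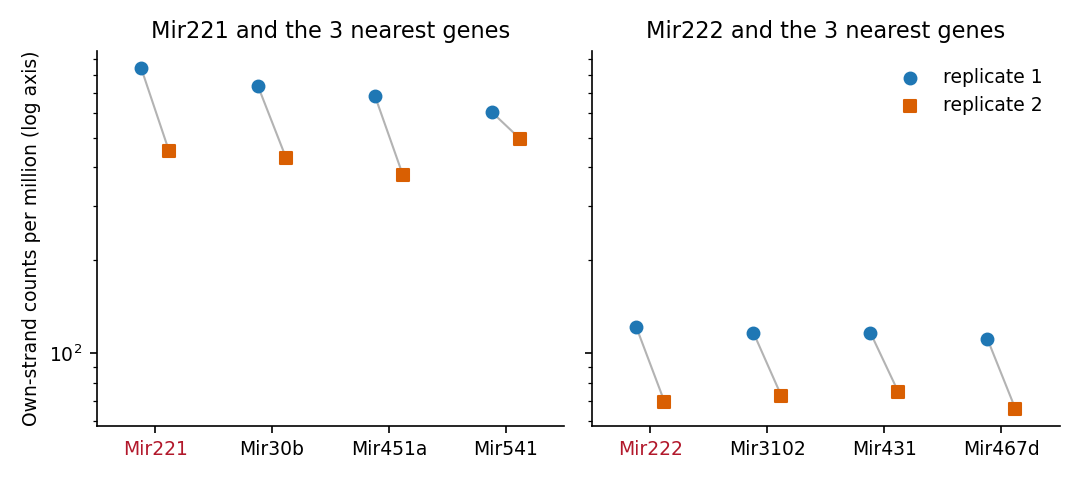
Own-strand CPM (log axis) of Mir221, Mir222 and the 3 genes nearest to each, with replicate 1 as circles and replicate 2 as squares, and no error bars. Mir221 sits at 842.5 and 451 CPM and Mir222 at 121 and 69.4 CPM, and all 8 genes are higher in replicate 1.

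The cluster divided its counts between its genes in nearly the same way in both libraries. Mir222 held 236 of the 1879 counts of the pair in replicate 1, 12.6% (95% exact Clopper-Pearson interval 11.1 to 14.1). It held 159 of 1193 in replicate 2, 13.3% (11.4 to 15.4). The mean share was 12.9% ± 0.543 (SD, n = 2). There were thus 6.96 counts of Mir221 for each count of Mir222 in replicate 1 (6.07 to 8.01) and 6.50 in replicate 2 (5.50 to 7.73), on average 6.73 ± 0.324 (SD, n = 2). The ratio of Mir222 to Mir221 was 1.07 times that of replicate 1 in replicate 2, a difference not detectable at this depth (two-sided Fisher's exact test, p = 0.543). Counts were compared directly, on the premise that a read is a whole mature microRNA. Whether both sequences were captured equally well in the libraries was not tested, so these are ratios of counts, not of molecules. Divided by the annotated hairpin lengths of 95 and 79 nt, the counts gave Mir222 14.7% and 15.6% of the pair.

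Among the 26 clusters of exactly 2 microRNA genes that lie within 10000 bp on 1 strand and were both detected, this split lay near the middle. The less abundant gene held a median of 13.2% of a cluster's counts, and the cluster of Mir221 and Mir222 stood 13th from the smallest share. The log2 ratios of Mir221 and Mir222 between libraries differed by 0.10, against a median of 0.18 over the 26 clusters and a range of 0.0064 to 0.87. A smaller difference was found in 10 clusters. The counting SE of the log2 ratio of Mir222 alone, 0.15, is larger than 0.10, so counting error can shift this order. In 15 of the 26 clusters at least 1 gene shares a stretch of 20 nt with another counted gene, so its count leaves out reads that could not be placed. Over the other 11 clusters, to which that of Mir221 and Mir222 belongs, the median share was 13.6% and this cluster stood 5th, with 5 clusters of smaller difference.

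**Figure D3:**
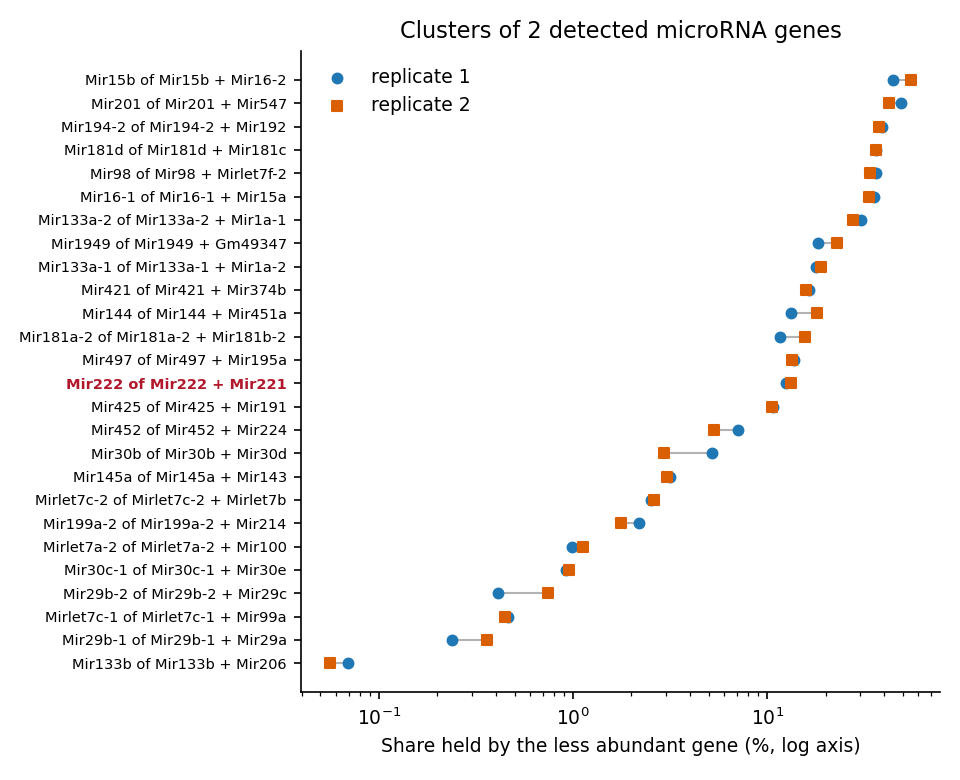
Share of each cluster's counts held by its less abundant gene (percent, log axis) for 26 clusters of 2 detected microRNA genes, with replicate 1 as circles and replicate 2 as squares. Mir222, in bold, holds 12.6% and 13.3% of the counts of its pair, near the median of 13.2%.

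Both genes were lower in replicate 2, by less than 2-fold. Its log2 ratio placed Mir221 lower by 0.87 (counting SE 0.057), a fold of 1.82 (95% exact binomial interval 1.69 to 1.97). Mir222 was lower by 0.77 (SE 0.15), a fold of 1.70 (1.39 to 2.10). These values use library sizes scaled by TMM, a trimmed mean over genes, and a prior of 0.5 counts, and they compare these libraries, not conditions.

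Neither gene was called by the rule of at least 2-fold with an adjusted p under 0.05 (two-sided conditional exact binomial test, Benjamini-Hochberg adjustment over the 278 detected genes). By that rule 9.35% of the detected genes were lower in replicate 2 and 2.52% higher. Without the fold minimum both members passed, with adjusted exact p = 2.67e-52 for Mir221 and 5.57e-07 for Mir222. So did 30.6% of the detected genes in the same direction and 24.8% in the other, so passing this test is common in these libraries. In edgeR's exact test, with the biological coefficient of variation of 0.353 estimated from these libraries, p was 0.242 for Mir221 and 0.308 for Mir222, and the adjusted p was 1.00 for both. That test, with the 2-fold minimum, called 2.52% of the genes in either direction. That spread was estimated from the same 2 libraries, so it contains the difference it is set against and these p-values settle nothing. The difference of both members exceeded the counting error of reads. Whether this difference exceeds the spread between animals cannot be tested with 1 library on each side.

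In size, 32 of the 278 detected genes were lower in replicate 2 by more than Mir221 and 40 by more than Mir222. The median log2 ratio of all detected genes was −0.03 and the median absolute log2 ratio 0.36. As a share of the mean, the SD was 42.8% for Mir221 and 38.4% for Mir222, against a median of 16.7% over the detected genes.

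The vessel wall list holds microRNAs known from smooth muscle or endothelium, the cells in which Mir221 and Mir222 are best known in arteries. Of its 21 names, 19 were in the files and 18 were detected. Mir18a and Mir92a-1 were not found by name. Mir18 and Mir92-1, which lie with Mir17 and Mir20a on chromosome 14, were detected but are not counted here. Their log2 ratios were 0.28, which did not pass, and −0.18, which passed without the fold minimum. Without the fold minimum, 11 of the 18 were lower in replicate 2, 5 were higher and 2 did not pass, with a median log2 ratio of −0.09. Over all detected genes, 30.6% were lower and 24.8% higher by that rule. Mir143, of smooth muscle, was lower by 1.02 (SE 0.0039, counting error). Mir126a, of endothelium, was higher by 0.41 (SE 0.0038). Mir21a, which is found in many growing cells, was lower by 0.44 and Mir23a by 0.09, while Mir23b had a log2 ratio of −0.01 and did not pass. Mir23a and Mir23b share a stretch of 20 nt with another counted gene, as do Mir27a, Mir27b, Mir24-1 and Mir24-2 of this list. Their counts leave out reads without a single place. Only Mir143 and Mir145a of this list also reached 2-fold, and 9.35% of all detected genes were called lower with that minimum.

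Counts of the pair per 1000 counts of a marker gene in the same library put these directions side by side. Per 1000 counts of Mir143 there were 4.91 counts of Mir221 and Mir222 together in replicate 1 and 5.52 in replicate 2 (mean 5.21 ± 0.427, SD, n = 2). Per 1000 counts of Mir145a there were 150.4 and 176. Per 1000 counts of Mir126a there were 7.97 and 3.32, so that value was 2.40-fold lower in replicate 2. Per 1000 counts of Mir206, the skeletal muscle microRNA, there were 36.1 and 12.4, a value 2.91-fold lower. Per 1000 counts of Mir21a there were 22.9 and 17.2. Relative to both smooth muscle markers the pair was slightly higher in replicate 2, and relative to the other 3 markers it was lower. Mir143 and Mir145a are themselves 1 cluster on chromosome 18, with log2 ratios of −1.02 and −1.08, so they are not independent markers.

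**Figure D4:**
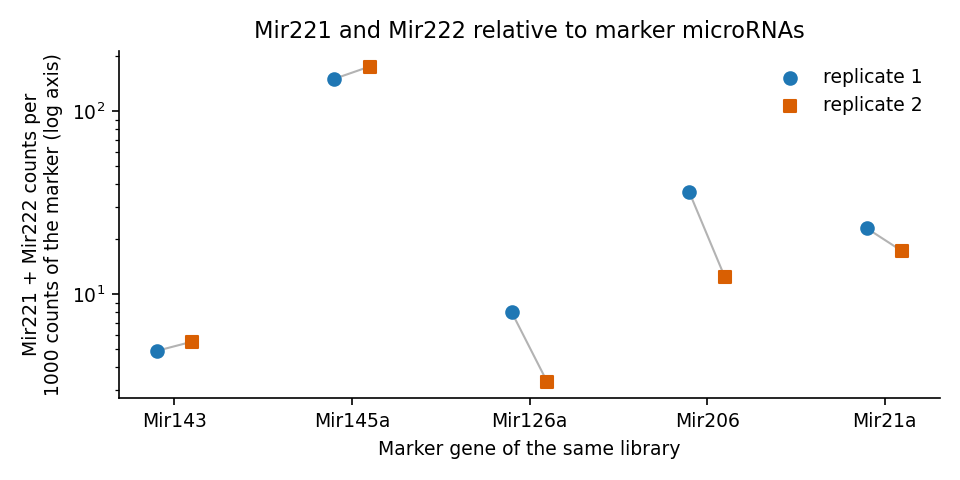
Counts of Mir221 and Mir222 together per 1000 counts of 5 marker genes of the same library (log axis), with replicate 1 as circles and replicate 2 as squares. The values per Mir143 are 4.91 and 5.52, while those per Mir126a are 7.97 and 3.32 and those per Mir206 are 36.1 and 12.4.

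Marker lists of the cell types in the muscle moved with the members in part. The 9 skeletal muscle markers were all detected and took 2.79% of counts in replicate 1 and 4.66% in replicate 2, nearly all of it Mir206, without which the shares were 0.124% and 0.461%. Mir499 and Mir208b, the 2 of the 9 that were called, were 8.10-fold and 6.38-fold higher in replicate 2. Of all detected genes, 2.52% were called higher. Mir1a-1, Mir1a-2, Mir133a-1, Mir133a-2 and Mir133b share stretches of 20 nt with other microRNA genes, so the list's share leaves out their reads without a single place. Both smooth muscle markers were detected and took 20.3% and 9.73%, and the endothelial marker Mir126a took 12.1% and 15.7%. The 4 leukocyte markers took 0.315% and 0.246%, but they did not move together. Mir223 and Mir142 were lower by 1.53 and 1.33 on the log2 scale, Mir155 was higher by 0.14, and Mir150 had 0.03 and did not pass. Both red cell markers took 0.0787% and 0.0460%, and without the fold minimum Mir451a passed while Mir144 did not. The fibroblast markers, 3 of 4 detected, took 0.149% and 0.151%, a share that hides different directions. Mir199b was lower by 1.67 and was called, Mir214 was higher by 0.14, and Mir199a-2 had −0.17 and did not pass. Mir199b and Mir199a-2 also share stretches of 20 nt with another counted gene. The satellite cell markers, 2 of 3 detected, took 0.0622% and 0.0100%. Mir708 held most of these counts, with 1117 and 216 against 96 and 12 of Mir31. Mir708 also shares a stretch of 20 nt with another counted gene, so its count leaves out reads without a single place. The epithelial markers, 2 of 6 detected, took 0.0331% and 0.0162%, and Mir200a, Mir200b and Mir141 were at 0 in replicate 2. Of the 2 detected, Mir203 passed without the fold minimum and Mir200c did not. Of the nerve and glia markers found in the files, Mir338 made up the whole of 0.307% and 0.0855%. Mir9-1, Mir9-2 and Mir9-3 were at 0 in both libraries. Reads without a single place are left out of these counts, so the counts of 0 do not show absence. Smooth muscle, red cell, satellite cell and epithelial shares were thus lower in replicate 2 along with Mir221 and Mir222. So were the glial share, through Mir338 alone, and the leukocyte share, through Mir223 and Mir142 but not Mir155 or Mir150. The part of these cell types in the difference was not tested.

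MicroRNAs known to fall during myoblast differentiation or to hold it back, the role for which Mir221 and Mir222 are known in muscle cells, were compared next. Of the 10 names in this list, 8 were in the files and 6 were detected. As in the vessel wall list, Mir18 and Mir92-1 are not counted. Without the fold minimum, 4 were lower in replicate 2, 1 was higher and 1 did not pass, with a median log2 ratio of −0.20. The shares over all detected genes were 30.6% lower and 24.8% higher, and 9.35% were lower with the 2-fold minimum. Mir125b-1 and Mir125b-2, which restrain muscle differentiation, were lower by 0.31 and 0.29. Mir17, of a cluster that drives proliferation, was lower by 0.10, and Mir20a of the same cluster had −0.02 and did not pass. Mir155 was higher by 0.14. Mir31, a satellite cell microRNA that holds back Myf5, was lower by 3.15 (SE 0.43), from 96 to 12 counts, and was the 1 member of the list that reached 2-fold. In mean, Mir221, at 647 CPM, thus lay below Mir17, Mir155 and Mir20a, with 1177, 1125 and 840 CPM, and above Mir31, with 27.2 CPM. Mir221 and Mir20a were close in replicate 1, with 842.5 and 856 CPM, and apart in replicate 2, with 451 and 824 CPM. Mir125b-2 and Mir125b-1 had 225 and 165 CPM, but these share a stretch of 20 nt with another counted gene, so reads without a single place are missing from their counts and they are not ranked against Mir221.

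MicroRNAs known to rise during myoblast differentiation were all detected, 16 of 16. Without the fold minimum, 8 were higher in replicate 2, 1 was lower and 7 did not pass, with a median log2 ratio of 0.37. None reached 2-fold with the adjusted p. Over all detected genes, 24.8% were higher and 30.6% lower without the fold minimum, and 2.52% were higher with it. Among the 6 most abundant, Mir378a was higher by 0.36, Mir206 by 0.69, Mir322 by 0.18 and Mir486 by 0.91. Mir29a was lower by 0.12, and Mir29c had −0.02 and did not pass. Mir378a and Mir29c share a stretch of 20 nt with another counted gene, as do the less abundant genes of this list except Mir503. Their counts leave out reads without a single place, so the order of abundance holds for placed reads only. The log2 ratios of Mir221 and Mir222 were below those of all 16 genes. Both lists were chosen with earlier results of these data known, so their directions are no independent evidence.

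Other X-linked microRNA genes did not share one direction. Of the 27 detected besides the members, 4 were lower in replicate 2 without the fold minimum, 8 were higher and 15 did not pass. Their median log2 ratio was 0.17. Among all detected genes, 30.6% were lower and 24.8% higher by the same rule. The 5 most abundant were Mir322, Mirlet7f-2, Mir98, Mir361 and Mir652. Mir322 and Mirlet7f-2 were higher by 0.18 and 0.21. Mirlet7f-2 shares a stretch of 20 nt with another counted gene, so its count leaves out reads without a single place. Mir98 and Mir361 had 0.04 and 0.06 and did not pass. Mir652 was lower by 0.75 (SE 0.048), from 2261 to 1545 counts, a difference close to that of Mir222.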

How the data were processed

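The authors deposited raw counts of reads per microRNA gene for each library, for either strand, the gene's own strand and the opposite strand. Reads were assigned to GENCODE mouse release 21 on mm10, per the deposited notes. Which aligner and counter were used is not given in the sources used here. Rows that name no gene, 79.3% and 84.1% of the reads listed in replicates 1 and 2, entered neither library sizes nor tests.

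Own-strand counts were used as CPM of their total. The 9410562 and 14377558 listed reads gave 1950204 and 2291821 such counts. The libraries were compared over all genes with at least 10 counts in each, by a two-sided conditional exact binomial test on TMM-scaled sizes (factors 1.01 and 0.988, edgeR 4.0.16) with Benjamini-Hochberg adjustment. With 1 group, edgeR's quasi-likelihood test has nothing to compare and was left out. Total counts on either strand are lower than on the own strand, since reads where genes overlap on both strands are then ambiguous.

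Named were the members, the 3 genes nearest to each, genes of the same seed, neighbouring microRNA genes, and the detected genes of the lists (up to 8, otherwise the 5 most abundant, and the 6 most abundant of those known to rise in differentiation). The values per marker gene, the 2-gene clusters and the mark for shared stretches of 20 nt were added after the counts had been seen. The members and lists were chosen with earlier results of these data known. Mir18a, Mir92a-1, Mir124-1, Mir124-2 and Mir124-3 were not found by those names in the annotation. Mir18 and Mir92-1, detected beside Mir17 and Mir20a on chromosome 14, were not counted in the lists. Fits used R 4.3.3 and DESeq2 1.42.0 (size factors), and the tests scipy 1.17.1 under Python 3.11.15.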

Additional observations from a re-analysis of the deposited data

How the results depend on the processing

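The lower level of both genes in replicate 2 kept its direction under the 8 alternatives tried for each, with log2 ratios from −0.90 to −0.84 for Mir221 and from −0.80 to −0.74 for Mir222. It stayed under the 2-fold rule in 7 of the 8. Without a fold minimum both passed, at −0.87 and −0.77. That setting and both edgeR settings change the test and not the ratio, so the direction could not have turned in them. Genes called numbered 33 of 278 tested, against 154 of 278 without a fold minimum and 7 of 278 with edgeR's estimated dispersion. With a minimum of 50 counts fewer genes were tested, and 18 of 207 were called. With an assumed coefficient of variation of 0.2, the adjusted edgeR p was 0.290 for Mir221 and 0.455 for Mir222. The mean levels depend on the denominator. They were 1983 and 291.5 CPM over totals without the 10 most abundant genes, and 123 and 18.1 per 1000000 of all reads listed. On either strand they were 875 and 129 CPM. Leaving out 1 library gave 451 to 842.5 CPM for Mir221, 69.4 to 121 CPM for Mir222 and 12.6% to 13.3% for the share of Mir222. That share was 15.2% per hairpin length. With 159 counts in the lower library, Mir222 limits what can be seen of the ratio between the genes. The median share of the less abundant gene over the 2-gene clusters was 13.2%, and 13.6% without clusters that hold a gene of shared sequence, a comparison chosen after seeing the data. No paired analysis was possible because there is 1 group of 2 libraries.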
